A study of Mus musculus with 20 samples.

Results

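Lung cells that had met the same pair of substrates in opposite order were compared directly: 4 RNA-seq libraries labelled 2D-3D against 4 labelled 3D-2D, chosen by their labels alone, out of 20 libraries in all. Both groups came from lungs of male C57BL/6 mice that were labelled normal and received no chemical agent. The 2D-3D cells spent their first 4 days on flat tissue culture plates and the next 2 days inside collagen hydrogels. The 3D-2D cells spent 4 days inside hydrogels and then 2 days on plates. Libraries of cells kept in gels (3D-3D, n = 4) or on plates (2D-2D, n = 4) for both periods stand beside them, and 4 libraries of uncultured cells, described as bead-sorted to remove CD45, EpCam and CD31 positive cells, are used only for marker levels. All cultures began from collagenase digests that had not been sorted, so that cells other than fibroblasts could enter them. The labels do not tell whether the replicates are separate mice. The p-values then cover the spread among libraries alone, and that spread may be technical.

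Fibroblasts sense the stiffness of what they grow on through integrins and focal adhesions. On stiff plastic they build stress fibres and can become myofibroblasts, which carry smooth muscle actin. Tension releases the cofactors MRTF, which works with SRF at CArG boxes, and YAP and TAZ, which work with TEAD factors. Soft collagen gels are known to lower this tension and to slow division. In the lung, fibroblasts lay down collagen and elastin and also send growth factors and cytokines to epithelium and macrophages.

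The 8 libraries were of like depth, with 19951928 to 20181790 counts in 2D-3D and 19672131 to 20289694 counts in 3D-2D. Between 14479 and 15050 genes were detected per library in 2D-3D and between 14990 and 15115 in 3D-2D. Replicate 1 of 3D-2D differed more from the other 3D-2D libraries than these did from each other, with chi-square per degree of freedom of 15.29 to 18.94 against 4.25 to 6.60. Among the 2D-3D libraries the same measure ran from 10.05 to 25.58, so that group was not more uniform. Levels are CPM, which are counts relative to the TMM-scaled library size, and changes are log2 values of 2D-3D over 3D-2D, with SE. A gene is called where edgeR's quasi-likelihood test gave an adjusted p below 0.05 over the 13704 genes tested. Fewer cells of a type and less RNA per cell cannot be told apart in RNA of whole cultures.

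The series describes the cells as lung fibroblasts, and both groups carried fibroblast and macrophage markers, of which the macrophage markers took more counts in every library. The 9 pan-fibroblast markers took 1.09% to 1.28% of all counts in 2D-3D and 0.767% to 0.914% in 3D-2D. The 20 macrophage markers took 2.28% to 2.75% of counts in 2D-3D, against 1.29% to 1.40% in 3D-2D, so the groups did not overlap. Every one of these 20 markers had counts in both groups. Markers of the resident alveolar fibroblast were scarce in both, at 0.0115% to 0.0180% in 2D-3D and 0.0246% to 0.0259% in 3D-2D, against 0.795% to 0.839% in the sorted uncultured cells. The gap between the orders lay in Npnt, with 1537 counts over the 2D-3D libraries and 11217 over the 3D-2D libraries. Of the 12 alveolar fibroblast markers tested, 3 were called higher and 3 lower in 2D-3D. The sorted cells still held RNA of the cell types that the beads were meant to remove. Endothelial markers took 0.0166% to 0.0186% of counts in 2D-3D and 0.0171% to 0.0203% in 3D-2D, against 0.405% to 0.426% in the sorted cells. Pecam1, which encodes CD31, had 371 counts over the 2D-3D libraries and 122 over the 3D-2D libraries, against 22313 over the sorted ones. Cd79a, a B cell receptor subunit, had 20587 counts in the sorted libraries, and Scgb1a1, of airway club cells, had 66331.

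The groups that met the substrates in opposite order differed at most genes. Since the first culture lasted 4 days and the second 2, order and total time on each substrate cannot be told apart. Of the 13704 genes tested, 9476 (69.1%) were called, 4933 higher (36%) and 4543 lower (33.2%) in 2D-3D. The counts of called members of each gene list below are to be read beside these shares. At least 2-fold changes were found at 3372 genes (24.6%), 1824 higher and 1548 lower, and changes of at least 16-fold at 61 higher and 90 lower genes. The libraries of the groups did not overlap at 8569 genes (62.5%). The median change over all genes was 0.0381 and the median absolute change 0.546 on the log2 scale. With libraries scaled by total count alone, the median moved to 0.225 and the calls to 6189 higher and 3421 lower, so directions of small changes depend on the scaling.

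The direct comparison was read beside that of 3D-3D with 2D-2D, which shares no library with it and in which 73.5% of genes were called. By arithmetic, a gene that moves the same way in both is one at which the averaged difference between second substrates is larger than that between first substrates, and a gene that moves in opposite ways is one at which the first substrates differ more. Among 7926 genes called in both, 7391 (93.3%) moved the same way, 53.9% of all genes tested, and they made up 78% of the calls of 2D-3D against 3D-2D and 73.3% of those of 3D-3D against 2D-2D. Another 535 genes (6.75%, or 3.9% of those tested) moved in opposite ways, 198 higher and 337 lower in 2D-3D. They made up 5.65% and 5.31% of the calls of these comparisons. All 4 2D-3D libraries lay above the other 12 cultured libraries at 5.88% of genes and below them at 3.84%, and all 4 3D-2D libraries above the others at 2.42% and below at 3.17%. Over all genes, the root mean square log2 distance between group means was 1.01 between 2D-3D and 3D-2D, 0.809 between 2D-3D and 3D-3D, and 0.503 between 3D-2D and 2D-2D, against 1.32 between 3D-3D and 2D-2D.

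**Figure D1:**
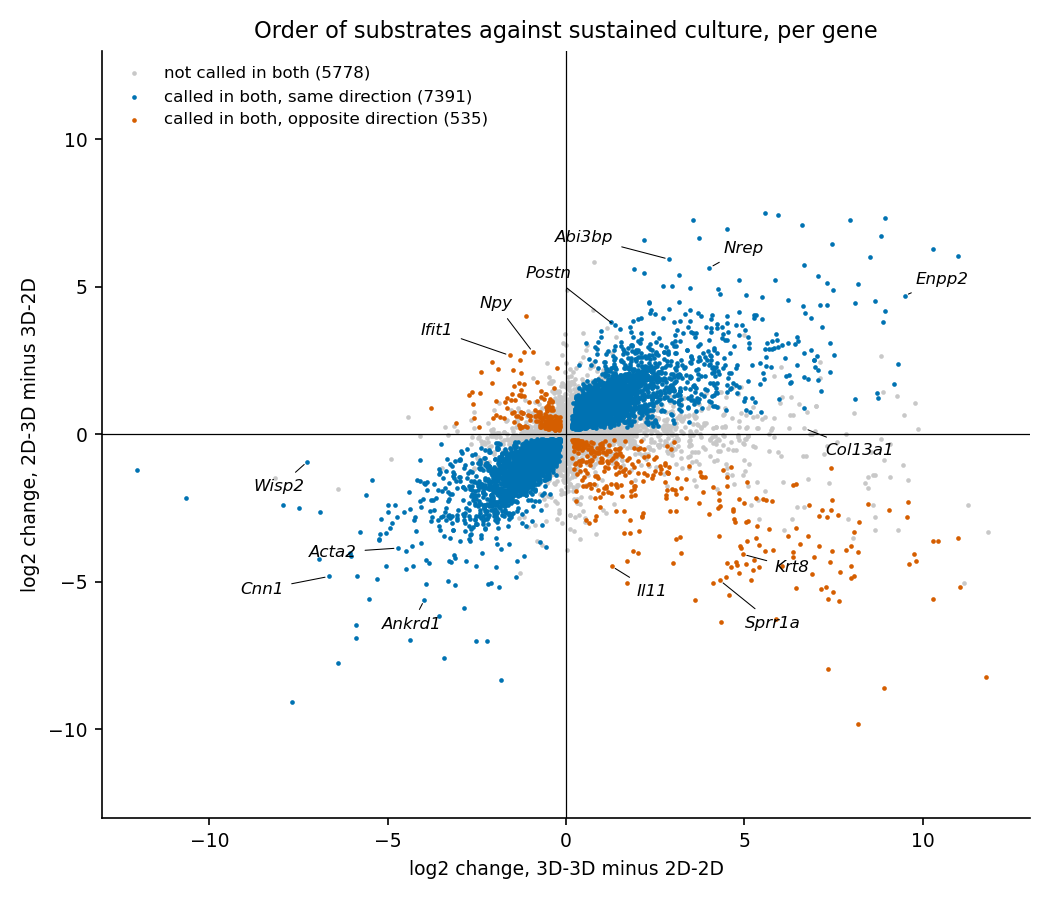
Fitted log2 change of each of the 13704 tested genes between 3D-3D and 2D-2D (x axis) and between 2D-3D and 3D-2D (y axis). Blue points are the 7391 genes called in both in the same direction and orange points the 535 called in opposite directions, with grey for the rest. Most called genes lie along the rising diagonal, with Acta2 and Cnn1 at its low end, while Krt8, Sprr1a and Il11 lie at the lower right and Ifit1 and Npy at the upper left. Fitted changes of genes with few counts depend on the prior count.

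Contractile genes, which build the force-bearing fibres of smooth muscle and of myofibroblasts, fell in 2D-3D without exception among those tested. All 15 tested members of the 16 listed were called lower, with a median of -2.82 beside 0.0381 over all genes, and at all 15 the libraries did not overlap. Acta2, smooth muscle actin, the standard mark of a myofibroblast (chromosome 19, 34240336 to 34255585 in GRCm38.p6), stood at 866, 735, 686 and 551 CPM in the 2D-3D libraries, against 9813, 10131, 10812 and 10364 CPM in the 3D-2D libraries. Every 3D-2D library lay far above every 2D-3D library. The change was -3.86 ± 0.20 (SE, edgeR adjusted p = 9.34e-13, n = 4 each). Cnn1, the calponin of smooth muscle, stood at 25.0, 17.3, 18.4 and 14.1 CPM in 2D-3D, against 513, 498, 545 and 551 CPM in 3D-2D. These groups lay still further apart, with a change of -4.82 ± 0.20 (edgeR adjusted p = 7.45e-14). Actg2, an actin of visceral smooth muscle, changed by -4.92 ± 0.21, Myh11, smooth muscle myosin heavy chain, by -4.46 ± 0.18, Lmod1, an actin nucleator of smooth muscle, by -4.14 ± 0.16, and Tagln, an actin-binding protein, by -3.10 ± 0.15. The smallest changes were those of Cald1 (caldesmon, -0.92 ± 0.09) and Mylk (the kinase that starts contraction, -0.92 ± 0.10). In cells kept on 1 substrate the levels of Acta2 were 535 CPM in 3D-3D against 14030.2 CPM in 2D-2D, so 2D-3D lay beside 3D-3D and 3D-2D beside 2D-2D.

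Promoters of the contractile list were searched for the CArG box, the site of SRF, since all members moved together. Of the 12 members with a RefSeq promoter (250 bases before the start, both strands), 2 held it, or 16.7%, against 1.42% of the 10841 tested genes with a promoter. It was found at 2.87% of the promoters of genes called lower by at least 2-fold and at 1.43% of those called higher by at least 2-fold. A match says only that these letters are in the window. Both promoters are printed here in GRCm38.p6 from RefSeq, with the box in capitals. In Ldb3, which encodes a Z-disc protein that binds actinin and fell by 3.02 on the log2 scale, the box begins 35 bases before the start (chr14:34588682-34588931, minus strand). In Myl9, the regulatory light chain of smooth muscle myosin, it begins 161 bases before (chr2:156775214-156775463, plus strand), and the change was -2.81 ± 0.17.
Ldb3: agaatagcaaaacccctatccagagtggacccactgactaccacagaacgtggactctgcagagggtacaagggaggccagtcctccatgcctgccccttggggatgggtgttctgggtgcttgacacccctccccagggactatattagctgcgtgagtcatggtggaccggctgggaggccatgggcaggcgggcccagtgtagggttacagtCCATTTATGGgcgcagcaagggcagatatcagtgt
Myl9: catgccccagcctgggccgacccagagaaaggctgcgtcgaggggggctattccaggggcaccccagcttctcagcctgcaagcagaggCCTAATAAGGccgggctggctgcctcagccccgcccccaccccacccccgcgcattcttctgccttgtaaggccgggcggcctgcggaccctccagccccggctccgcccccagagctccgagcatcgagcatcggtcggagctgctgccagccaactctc

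Genes of the wider actin cytoskeleton and of focal adhesions fell with them. All 22 tested members were lower (median -1.30), and the libraries did not overlap at 21. Zyx, zyxin, which gathers at stressed adhesions, stood at 367 CPM in 2D-3D against 1729 CPM in 3D-2D, a change of -2.23 ± 0.10. Actn1, the actinin that bundles stress fibres, changed by -2.02 ± 0.07, and Flna, a filamin that crosslinks actin, by -1.95 ± 0.08. Actb, the actin often taken as a constant gene, averaged 3858 ± 164 CPM in 2D-3D against 9276 ± 233 CPM in 3D-2D (SD, n = 4 each), with no overlap of the libraries and a change of -1.27 ± 0.06. The smallest change was that of Diaph1, a formin that extends actin filaments, at -0.24 ± 0.08. The libraries overlapped at 1 gene alone, Pxn, paxillin (-0.25 ± 0.07).

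Targets of YAP and TAZ were mostly lower. Of 23 tested members 17 were called lower and 3 higher. Ankrd1, a nuclear target of YAP, had 4.12, 3.11, 2.61 and 2.68 CPM in 2D-3D, against 172, 142, 155 and 145 CPM in 3D-2D. The groups did not come near each other, and the change was -5.61 ± 0.21 (edgeR adjusted p = 1.68e-14). Ctgf and Cyr61, secreted CCN proteins that are classic YAP targets, were lower as well: Ctgf averaged 111 CPM in 2D-3D against 1375 CPM in 3D-2D, a change of -3.63 ± 0.12. Cyr61 averaged 151 CPM in 2D-3D against 1343 CPM in 3D-2D, a change of -3.15 ± 0.12. Amotl2, an inhibitor of YAP that YAP itself induces, changed by -3.28 ± 0.21. The higher members were Igfbp3, which binds insulin-like growth factors (1.40), Tgfb2, a TGF-beta ligand (0.71), and Rbms3, an RNA-binding protein (0.52). The TEAD letters GGAATG, searched on both strands, were found in 7 of 17 promoters of the list (41.2%), against 12.9% of all tested genes with a promoter, 13.5% of those called higher by at least 2-fold and 16.5% of those called lower by at least 2-fold. They were also in 6 of 12 contractile promoters.

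Genes of the sensing machinery itself were lower in 15 of 20 tested cases and higher in 2. Tead4, a DNA partner of YAP, changed by -3.73 ± 0.32 at low levels (0.592 CPM in 2D-3D against 7.92 CPM in 3D-2D), Tead1 by -1.98 ± 0.15, Srf by -1.89 ± 0.08, and Mkl1, which encodes MRTF-A, by -1.78 ± 0.10. Piezo1, a stretch-gated channel, averaged 121 ± 23.1 CPM in 2D-3D against 339 ± 45.4 CPM in 3D-2D (SD, n = 4 each), a change of -1.48 ± 0.13. Yap1 changed by less, with 51.2 CPM in 2D-3D against 79.1 CPM in 3D-2D and a change of -0.63 ± 0.08. The 2 higher members were the kinases Rock1 (0.88) and Lats1 (0.31), of which Lats1 restrains YAP. The call of Lats1 ended without replicate 1 or 4 of 2D-3D, or without replicate 1 or 3 of 3D-2D, with edgeR adjusted p of 0.0607, 0.115, 0.137 and 0.0941. Among 19 integrins and collagen receptors, 4 were higher and 8 lower, beside 36% and 33.2% of all genes, and 2 were higher without replicate 1 of 3D-2D. Itga6, a laminin receptor, was higher (1.59 ± 0.16), as was Itga4, a receptor for fibronectin (1.01 ± 0.12). Itga5, the main fibronectin receptor, was lower (-1.37 ± 0.10), and so was Itga8, which binds nephronectin (-2.14 ± 0.20).

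**Figure D2:**
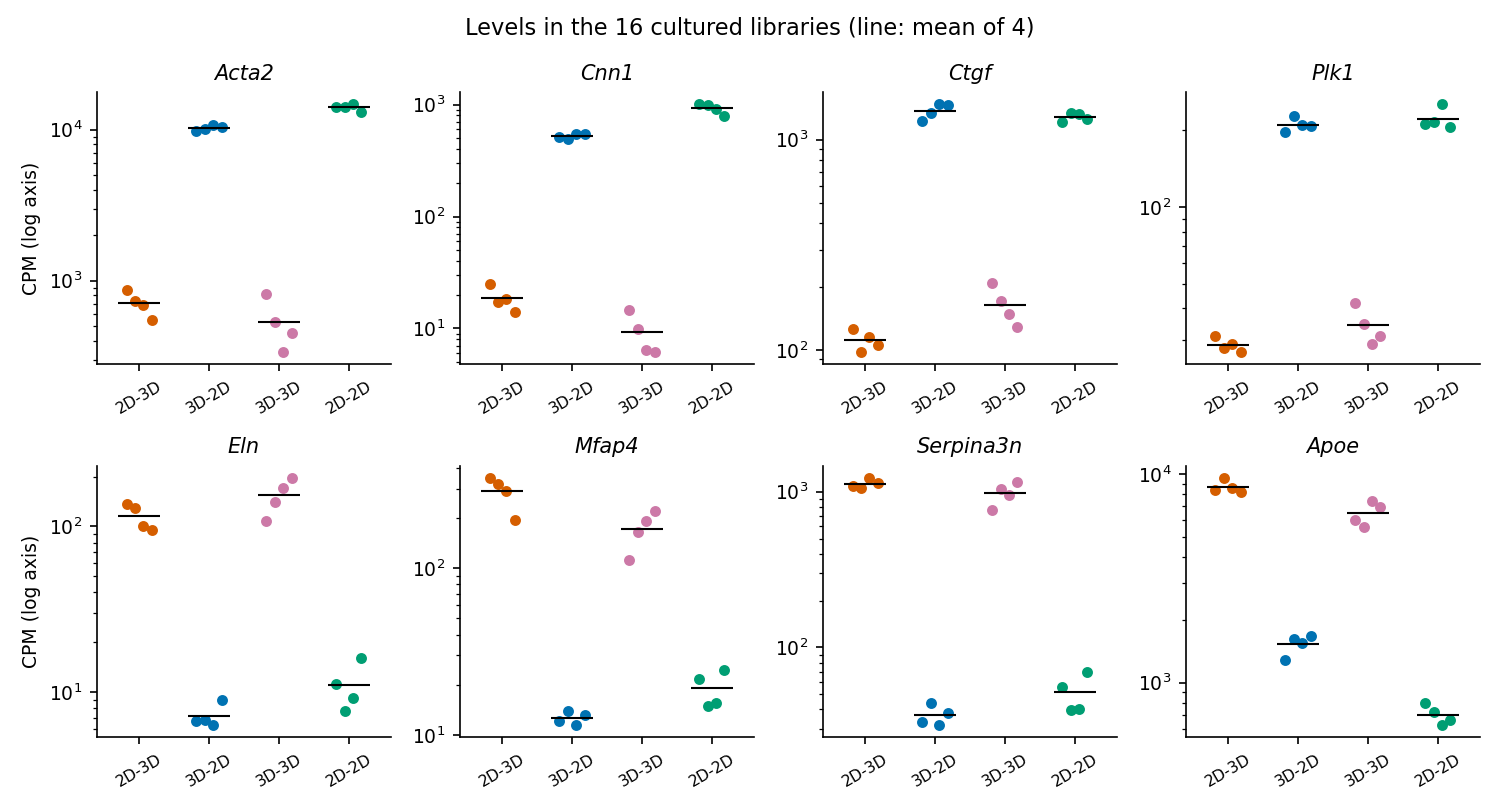
Level of 8 genes in each of the 16 cultured libraries, in CPM on a log axis, with a line at the mean of 4. Acta2, Cnn1, Ctgf and Plk1 are low in 2D-3D and 3D-3D, and high in 3D-2D and 2D-2D, and Eln, Mfap4, Serpina3n and Apoe show the reverse. At none of the 8 do the 2D-3D and 3D-2D libraries overlap.

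The cell cycle genes moved as a block. All 24 tested genes of DNA replication and all 24 of mitosis were called lower in 2D-3D, with medians of -1.86 and -1.75. Plk1, a kinase that drives mitotic entry, had 31.2, 27.9, 29.1 and 27.1 CPM in 2D-3D, against 197, 228, 209 and 207 CPM in 3D-2D. All 2D-3D libraries lay well below all 3D-2D libraries, and the change was -2.87 ± 0.10 (edgeR adjusted p = 9.92e-15). Foxm1, the factor that turns on late cell cycle genes, changed by -2.75 ± 0.10, and Aurka, a spindle kinase, by -2.69 ± 0.11. Among replication genes, Cdc6, which loads the replicative helicase, changed by -2.76 ± 0.16, its subunit Mcm5 by -2.65 ± 0.14, and Rrm2, which makes deoxynucleotides, by -2.64 ± 0.16. Mki67, the usual marker of cycling cells, changed by less, with 70.8 ± 3.62 CPM in 2D-3D against 134 ± 10.8 CPM in 3D-2D (SD, n = 4 each) and -0.92 ± 0.19. In cells kept on 1 substrate Plk1 stood at 34.3 CPM in 3D-3D against 221 CPM in 2D-2D. Inhibitors of the cycle and p53 targets were mixed, with 6 of 20 higher and 9 lower: Cdkn1c, an inhibitor tied to quiescence, was higher (1.57 ± 0.17) and Cdkn2c, an inhibitor of CDK4 and CDK6, lower (-1.16 ± 0.10).

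The letters TTTGAA, the cell cycle homology region found in promoters of G2 and M phase genes, were in 8 of 19 mitosis promoters (42.1%), searched on both strands, against 13.1% of all tested genes with a promoter. They were in 3 of 19 promoters of replication genes (15.8%). Among all genes changed by at least 2-fold the letters were in 16.1% of promoters of those higher in 2D-3D and 14.5% of those lower. The promoters of 3 members with large changes are shown with the letters in capitals: Ube2c, a ubiquitin carrier of the anaphase complex (change -2.65 ± 0.12, chr2:164769679-164769928, plus strand), Cdc20, the activator of that complex (change -2.60 ± 0.12, chr4:118437344-118437593, minus strand), and Cdk1, the kinase of mitosis (change -2.14 ± 0.15, chr10:69352913-69353162, minus strand). In Ube2c the letters begin 29 bases before the start and in Cdc20 18 bases before, and Cdk1 holds 2 copies.
Ube2c: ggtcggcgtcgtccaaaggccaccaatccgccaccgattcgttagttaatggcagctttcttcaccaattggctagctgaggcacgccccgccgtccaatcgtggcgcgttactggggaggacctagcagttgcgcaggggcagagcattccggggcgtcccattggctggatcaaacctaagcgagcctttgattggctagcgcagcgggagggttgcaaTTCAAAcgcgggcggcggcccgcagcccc
Cdc20: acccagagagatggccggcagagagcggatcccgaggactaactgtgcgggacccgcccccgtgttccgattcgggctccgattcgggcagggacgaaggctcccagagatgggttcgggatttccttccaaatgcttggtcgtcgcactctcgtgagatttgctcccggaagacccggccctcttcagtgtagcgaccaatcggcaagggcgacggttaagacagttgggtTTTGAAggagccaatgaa
Cdk1: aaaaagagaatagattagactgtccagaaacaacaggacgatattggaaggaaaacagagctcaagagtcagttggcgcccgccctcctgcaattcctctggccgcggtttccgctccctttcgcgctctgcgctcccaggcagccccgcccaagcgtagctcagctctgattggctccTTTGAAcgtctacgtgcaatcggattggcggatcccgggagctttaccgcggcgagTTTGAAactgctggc

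Most lists of matrix genes held members called in both directions. Elastic fibre genes held 7 higher and 5 lower of 14. Eln, elastin itself, had 136, 129, 100.1 and 95.5 CPM in 2D-3D, against 6.66, 6.82, 6.33 and 9.01 CPM in 3D-2D. All 2D-3D libraries lay far above all 3D-2D libraries, and the change was 4.00 ± 0.21 (edgeR adjusted p = 1.95e-12). Mfap4 and Mfap2, microfibril proteins, changed by 4.50 ± 0.22 and 1.94 ± 0.10, while Fbln5, which guides elastin onto fibres, went the other way (-2.20 ± 0.13). When libraries were scaled by total count alone, 3 members of the list were lower.

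Of 18 collagens tested 8 were called higher and 5 lower, beside 36% and 33.2% of all genes. Col3a1, the collagen of compliant tissue, averaged 5028 ± 833 CPM in 2D-3D against 1189 ± 132 CPM in 3D-2D (SD, n = 4 each), with no overlap and a change of 2.08 ± 0.13. Col15a1, a collagen next to basement membranes, changed by 2.74 ± 0.13, and Col5a3 by 2.01 ± 0.21. Col1a1, the main fibrillar collagen, was not called, with 5461, 5220.4, 4599.8 and 4884 CPM in 2D-3D, against 3566, 4939, 4343 and 4875 CPM in 3D-2D. The libraries overlapped, and the 95% interval of its change ran from -0.06 to 0.43 on the log2 scale. Col1a2, its partner chain, was called with 0.72 ± 0.09. The lower collagens included Col12a1, which links fibrils to their surroundings (-2.66 ± 0.23), and Col8a1, a short-chain collagen of vessel walls (-2.63 ± 0.20).

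Small leucine-rich proteoglycans, which bind collagen and set the width of its fibrils, were higher in 6 of 8 tested cases. Dcn, decorin, had 877 CPM in 2D-3D against 179 CPM in 3D-2D, a change of 2.29 ± 0.11. Podn, podocan, changed by 3.49 ± 0.16 and Ogn, osteoglycin, by 2.75 ± 0.29. Prelp, which anchors basement membranes, was the 1 lower member (-1.97 ± 0.11). Aspn, asporin, had 679 counts over the 2D-3D libraries and 3 over the 3D-2D libraries.

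Matricellular proteins, which signal from the matrix rather than build it, were higher in 12 of 17 cases and lower in 4. Postn, periostin, a marker of activated fibroblasts, had 57.7, 51.7, 49.9 and 62.4 CPM in 2D-3D, against 4.68, 4.88, 3.67 and 3.85 CPM in 3D-2D. The 2D-3D libraries lay above every other cultured library, since Postn averaged 17.3 CPM in 3D-3D against 6.73 CPM in 2D-2D, and the change was 3.70 ± 0.17 (edgeR adjusted p = 2e-13). Sparcl1, a relative of osteonectin, changed by 4.26 ± 0.13, and Spon1, a spondin, by 2.94 ± 0.18. Tnc, tenascin C, which marks wounds and fibrosis, went the other way with 190.1 CPM in 2D-3D against 2073 CPM in 3D-2D and a change of -3.45 ± 0.12. Thbs1, a thrombospondin that activates latent TGF-beta, also fell (-1.85 ± 0.10), as did Fn1, fibronectin (-0.65 ± 0.16).

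Basement membrane genes were lower in 9 of 15 cases and higher in 3. Npnt, nephronectin, the ligand of the Itga8 integrin, averaged 17.8 CPM in 2D-3D against 148 CPM in 3D-2D, a change of -3.05 ± 0.13. Lama5, a laminin chain (-2.40 ± 0.19), Nid2, a nidogen (-2.19 ± 0.19), and Hspg2, perlecan (-1.89 ± 0.16), were lower as well. The higher ones were Col4a6 (1.05), Col4a5 (0.70) and Col18a1 (0.42). Of 16 enzymes and helpers that mature and crosslink collagen 4 were higher and 5 lower. Plod2, a lysyl hydroxylase, was higher (1.09 ± 0.13), and Loxl4, a lysyl oxidase, lower (-1.52 ± 0.15). Scaled by total count alone, this list had 7 higher members. Hyaluronan genes were lower in 6 of 10 cases, led by Cemip, which breaks hyaluronan down (52.3 CPM in 2D-3D against 471 CPM in 3D-2D, change -3.17 ± 0.17).

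Matrix proteases and their inhibitors were higher in 17 of 26 cases and lower in 8. Mmp2, gelatinase A of fibroblasts, had 533, 496, 594 and 597 CPM in 2D-3D, against 80.2, 90.5, 79.0 and 86.8 CPM in 3D-2D. The groups did not overlap, and the change was 2.72 ± 0.10 (edgeR adjusted p = 1.58e-14). Mmp11, a stromelysin of stroma, changed by 3.03 ± 0.11, Ctsk, a collagen-degrading cathepsin, by 2.29 ± 0.12, and Mmp12, the elastase of macrophages, by 2.14 ± 0.15. Mmp3, stromelysin 1, was higher by less (0.50 ± 0.10). Plau, the urokinase that activates plasminogen, was among the lower members (-2.38 ± 0.08). Macrophage markers took more of the counts in 2D-3D than in 3D-2D, as given above, and their part in the change of Mmp12 and the cathepsins was not tested.

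Among secreted signals, TGF-beta genes were higher in 8 and lower in 5 of 15 cases. The receptor gene Tgfbr1 was higher (1.63 ± 0.15), and so was Tgfbi, a matrix protein that TGF-beta induces (1.38 ± 0.09). The ligand Tgfb3 (-1.15 ± 0.09) and Ltbp1, which stores latent TGF-beta (-1.18 ± 0.11), were lower. BMP genes were higher in 7 and lower in 6 of 19 cases, near the 36% and 33.2% of all genes. Among genes of at least 10 CPM in 4 libraries, 3 BMP genes were lower. Bmp4, a BMP ligand, had 0.637 CPM in 2D-3D against 11.3 CPM in 3D-2D (change -4.13 ± 0.22), and the receptor genes Bmpr2 (1.26 ± 0.14) and Bmpr1a (1.19 ± 0.13) were higher. Bmp7 had no counts in 2D-3D, against 0.501 CPM in 3D-2D. Wnt genes were higher in 6 and lower in 5 of 20 cases, with 8 lower when replicate 1 of 3D-2D was left out. Wnt4, a ligand, was higher (1.90 ± 0.15), and Dkk2, a Wnt antagonist, lower (-3.11 ± 0.28).

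Growth factors and receptors were called in 13 of 26 cases, 5 higher and 8 lower, beside 69.1% of all genes. The median change of the list was -0.107, though the genes named next were all higher in 2D-3D. Igf1, insulin-like growth factor 1, which fibroblasts and macrophages both make, had 236, 303, 265 and 288 CPM in 2D-3D, against 56.7, 40.4, 44.7 and 42.5 CPM in 3D-2D. All 2D-3D libraries were above all 3D-2D libraries, with a change of 2.56 ± 0.13 (edgeR adjusted p = 6.65e-13). Hgf, which supports epithelium and endothelium, changed by 2.29 ± 0.19. Pdgfra, the PDGF receptor of lung fibroblasts, averaged 331 ± 51.3 CPM in 2D-3D against 173 ± 7.77 CPM in 3D-2D (SD, n = 4 each), a change of 0.94 ± 0.10. Scaled by total count alone, 9 members were higher.

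**Figure D3:**
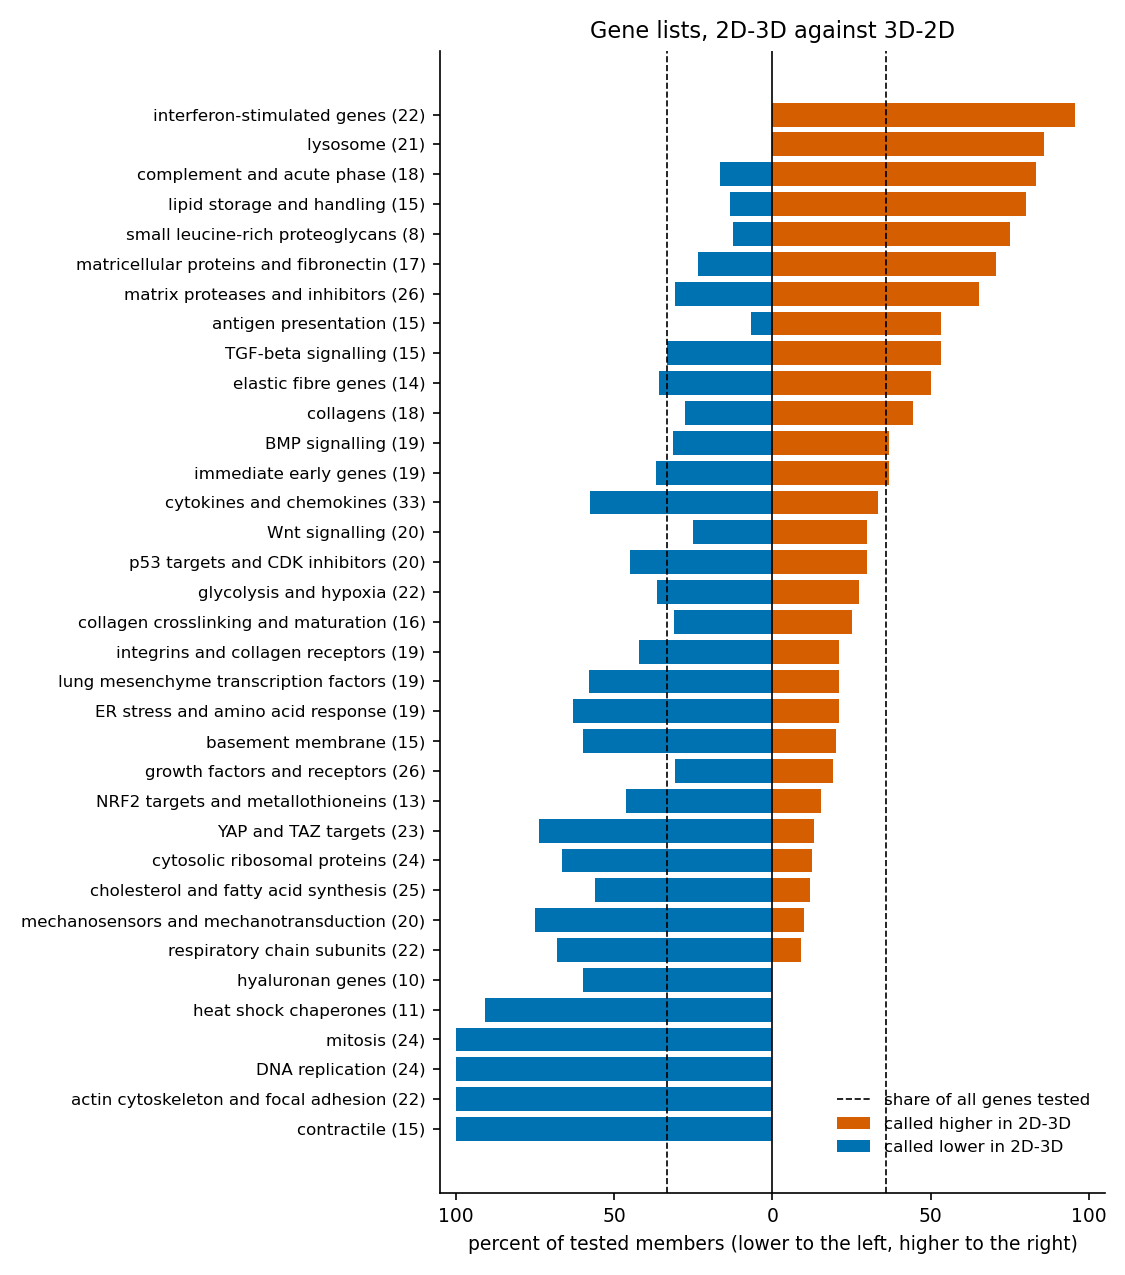
Percent of tested members of the 35 functional gene lists called higher (right, orange) and lower (left, blue) in 2D-3D against 3D-2D, with the number tested in brackets. Dashed lines mark the shares of all 13704 genes, 36% higher and 33.2% lower. The interferon, lysosome and complement lists reach furthest to the right, and the contractile, actin, replication and mitosis lists reach 100% to the left.

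Cytokines and chemokines split, with 11 higher and 19 lower of 33. Il11, a cytokine of the IL-6 family made by fibroblasts under TGF-beta, had 1.78, 0.915, 2.51 and 2.23 CPM in the 2D-3D libraries, against 36.2, 42.8, 45.5 and 40.5 CPM in the 3D-2D libraries. All 2D-3D libraries lay far below all 3D-2D libraries, and the change was -4.47 ± 0.19 (edgeR adjusted p = 1.08e-13). Csf1, the growth factor of macrophages, averaged 222 ± 27.3 CPM in 2D-3D against 1299 ± 116 CPM in 3D-2D (SD, n = 4 each), a change of -2.55 ± 0.09. Il6 (-1.77 ± 0.24) and Lif (-1.91 ± 0.10), relatives of Il11, were lower too, and so was Ccl2, which draws monocytes, though by less (-1.58 ± 0.21). The higher members included Ccl8, a chemokine made by macrophages, with 19.7 CPM in 2D-3D against 2.02 CPM in 3D-2D (change 3.28 ± 0.24), Il33, an alarmin (2.35 ± 0.16), and Il1b, interleukin 1 beta of macrophages, with 37.2 CPM in 2D-3D against 7.31 CPM in 3D-2D (change 2.35 ± 0.15). AP-1 letters (TGANTCA, either strand) were in 7 of 24 promoters of the list (29.2%), against 5.94% of all tested genes with a promoter, 8.95% of those called higher by at least 2-fold and 6.75% of those called lower by at least 2-fold. They were also in 25% of contractile and 22.2% of interferon-stimulated promoters. The NF-kB letters, GGG and CC with any 5 bases between them, were in 14 of the 24 (58.3%), against 66.6% of all tested genes with a promoter.

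Interferon-stimulated genes were called higher in 21 of 22 tested cases and lower in none, with a median of 1.07. The 1 not called was Ifit2, which encodes a protein that binds viral RNA (0.36 ± 0.23, edgeR adjusted p = 0.174). Ifit1, a sensor of foreign RNA caps, had 24.4, 25.1, 15.4 and 14.3 CPM in 2D-3D, against 3.59, 2.99, 3.09 and 2.74 CPM in 3D-2D. The libraries did not overlap, and the change was 2.67 ± 0.22 (edgeR adjusted p = 1.13e-09). Irf7, which amplifies interferon production, averaged 95.2 ± 16.1 CPM in 2D-3D against 32.4 ± 2.10 CPM in 3D-2D (SD, n = 4 each), a change of 1.56 ± 0.12. Ifit3, a partner of Ifit1, changed by 2.79 ± 0.27, Ifi44 by 2.70 ± 0.31, and Gbp3, a guanylate-binding protein, by 2.47 ± 0.20. In cells kept on 1 substrate the list ran the other way on its median, -0.414 for 3D-3D against 2D-2D, with Ifit1 at 6.53 CPM in 3D-3D against 19.5 CPM in 2D-2D. Of the 22, 10 were called in both comparisons in opposite directions and 4 in the same direction.

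Complement and acute phase genes were higher in 15 of 18 cases and lower in 3. Serpina3n, a secreted inhibitor of serine proteases, had 1083, 1051, 1226 and 1143 CPM in 2D-3D, against 33.0, 43.8, 31.8 and 38.0 CPM in 3D-2D. The groups did not overlap and the change was 4.94 ± 0.17 (edgeR adjusted p = 7.48e-15). C4b and C3, complement components that fibroblasts also make, changed by 3.38 ± 0.12 and 1.99 ± 0.11, and C1s1, a protease of the first complement complex, by 3.06 ± 0.12. The 3 lower members were Ptx3, a pentraxin (-2.06 ± 0.15), Lcn2, lipocalin 2, which binds iron carriers (-1.44 ± 0.12), and Ltf, lactoferrin, with 0.0234 CPM in 2D-3D against 1.05 CPM in 3D-2D. Ltf was not called with limma-voom (adjusted p = 0.167). Of 15 antigen presentation genes 8 were higher and 1 lower. B2m, the light chain of class I molecules, was higher (1.17 ± 0.08), as was H2-K1, a class I heavy chain (0.92 ± 0.12). H2-DMa, which loads class II molecules, was lower (-0.34 ± 0.11), and no member was called lower with libraries scaled by total count alone.

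Genes of the lysosome were higher in 18 of 21 cases and lower in none, by small amounts (median 0.411). Lamp2, a membrane protein of lysosomes, averaged 804 ± 51.0 CPM in 2D-3D against 245 ± 42.0 CPM in 3D-2D (SD, n = 4 each), a change of 1.71 ± 0.12. Atp6v0d1, a proton pump subunit, was among the 3 not called (0.15). Without replicate 4 of 2D-3D or replicate 1 of 3D-2D, 1 member was called lower. Genes of lipid storage and handling were higher in 12 of 15 cases. Apoe, which carries lipid between cells, had 8377, 9583, 8527 and 8223 CPM in the 2D-3D libraries, against 1281, 1609, 1554 and 1666 CPM in the 3D-2D libraries. The groups did not overlap and the change was 2.51 ± 0.11 (edgeR adjusted p = 8.19e-14). Lpl, lipoprotein lipase, changed by 1.88 ± 0.09 and Abca1, a cholesterol exporter, by 1.75 ± 0.14. Macrophages express many genes of the interferon, lysosome, complement and lipid lists. Macrophage markers were called higher in 17 of 20 cases, and their part in these results was not tested.

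Cholesterol and fatty acid synthesis ran opposite to lipid handling, with 14 of 25 lower and 3 higher. Fasn, fatty acid synthase, averaged 126 CPM in 2D-3D against 431 CPM in 3D-2D, a change of -1.78 ± 0.10. Hmgcs1, which makes the precursor of mevalonate, was higher (0.92 ± 0.14), and 7 members were higher with libraries scaled by total count alone. Genes of ER stress and the amino acid response were lower in 12 of 19 cases and higher in 4. Psat1 and Phgdh, enzymes that make serine, changed by -2.55 ± 0.12 and -1.96 ± 0.11, and Shmt2, which moves serine carbon into the folate pool of mitochondria, by -1.85 ± 0.09. Ddit3, the factor CHOP of the stress response, was higher (1.74 ± 0.15). Heat shock chaperones were lower in 10 of 11 cases, led by Hsph1 (-1.89 ± 0.10), with Hspa9, a mitochondrial chaperone, not called (-0.13) unless replicate 1 of 2D-3D was left out (edgeR adjusted p = 0.0461).

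Glycolysis and hypoxia genes were mixed, with 6 of 22 higher and 8 lower. Adm, adrenomedullin, was lower (-2.19 ± 0.24) and Ankrd37, a target of hypoxia factors, higher (2.11 ± 0.28), as was Bnip3, which removes mitochondria in hypoxia (1.26 ± 0.21). NRF2 targets and metallothioneins were lower in 6 of 13 cases and higher in 2. Only 1 was higher with RLE size factors, with DESeq2, with no filter, with all 20 libraries fitted or without any single 2D-3D library. Scaled by total count alone, 3 were lower. Immediate early genes were higher in 7 and lower in 7 of 19 cases, near the 36% and 33.2% of all genes, with 4 lower under that scaling. Egr2 (2.00 ± 0.16), Atf3 (1.64 ± 0.19) and Fos (1.53 ± 0.27) were higher, while Maff (-1.91 ± 0.12), Fosl1 (-1.70 ± 0.14) and Myc (-1.15 ± 0.09), transcription factors like them, were lower. Ribosomal protein genes were lower in 16 of 24 cases and respiratory chain genes in 15 of 22, with medians of -0.341 and -0.331. With libraries scaled by total count alone these became 9 and 7 lower, with 5 and 4 higher, so these counts depend on the scaling.

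Transcription factors of lung mesenchyme were lower in 11 of 19 cases and higher in 4. Sox9, a factor of cartilage and of fibrotic matrix programmes, had 50.1 CPM in 2D-3D against 7.80 CPM in 3D-2D, a change of 2.68 ± 0.13, and Meox2, a homeobox factor, changed by 1.06 ± 0.16. Twist2 (-1.01 ± 0.09) and Hoxb5 (-1.05 ± 0.11) were lower. Tcf21, which marks lipid-rich fibroblasts of the lung, was not called, with 41.4 CPM in 2D-3D against 38.1 CPM in 3D-2D and a 95% interval of -0.13 to 0.37 on the log2 scale.

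The genes with the largest changes, taken among called genes of at least 10 CPM in a group with no overlap, included several outside the pathways above. Chl1, an adhesion molecule of the L1 family, had 19.9 CPM in 2D-3D against 0.185 CPM in 3D-2D, a change of 6.71 ± 0.29. Abi3bp, a matrix protein, stood at 51.3, 73.3, 43.6 and 71.0 CPM in 2D-3D, against 0.988, 0.997, 0.745 and 1.16 CPM in 3D-2D. It was higher in every 2D-3D library than in any other cultured library, with a change of 5.93 ± 0.29 (edgeR adjusted p = 4.78e-13). Nrep, which is tied to TGF-beta and wound repair, averaged 254 ± 41.1 CPM in 2D-3D against 5.09 ± 0.657 CPM in 3D-2D (SD, n = 4 each) (5.64 ± 0.20). Ace, the enzyme that makes angiotensin II, changed by 4.64 ± 0.15, Agt, angiotensinogen, its source, by 4.90 ± 0.26, and Mme, a peptidase of the same peptides, by 5.13 ± 0.27. Cxcr4, the receptor for Cxcl12, averaged 69.4 CPM in 2D-3D against 2.57 CPM in 3D-2D, a change of 4.75 ± 0.19.

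At the other end, Gzme, a granzyme, had 0.303 CPM in 2D-3D against 38.7 CPM in 3D-2D, a change of -6.98 ± 0.30, and Mcpt8, a protease of basophils, had 0.396 CPM in 2D-3D against 35.0 CPM in 3D-2D, a change of -6.45 ± 0.26. The mast cell markers Fcer1a and Ms4a2 had no counts in any cultured library, but only 9 and 6 over the sorted ones. Kit, of the same list, had 262 counts over the 2D-3D libraries and 102 over the 3D-2D libraries. Tpsb2, Cma1 and Mcpt4 had 0 counts in 2D-3D and 8, 5 and 4 in 3D-2D, and Cpa3 had 3 and 0. Gzma, a granzyme of lymphocytes, had no counts in any cultured library. Granzymes and mast cell proteases are close families, so the split of counts among them is uncertain. Syt13, a synaptotagmin, was lower with 2.04 CPM in 2D-3D against 39.8 CPM in 3D-2D (-4.28 ± 0.18), and so was Adora1, an adenosine receptor, with 0.439 CPM in 2D-3D against 15.3 CPM in 3D-2D (-5.10 ± 0.43). Both were higher in 3D-2D than in any other culture, with Syt13 at 4.10 CPM in 3D-3D against 10.7 CPM in 2D-2D.

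The 535 genes that moved in opposite ways between the comparisons form a pattern of their own. The 337 lower ones were mostly scarce in cells that began on plates, with median levels of 1.27 CPM in 2D-3D against 3.70 CPM in 3D-2D, beside 10.7 CPM in 3D-3D against 1.65 CPM in 2D-2D. Keratins and basal epithelial markers had some of the largest changes among them. Of 12 tested, 10 were called lower, all 10 in this class, and none higher. Trp63 and Perp were not among the 10, with 18 and 384 counts over the 2D-3D libraries against 10 and 277 over the 3D-2D libraries. Krt8, a keratin of simple epithelium, had 2.53, 3.34, 2.32 and 3.91 CPM in 2D-3D, against 24.7, 62.8, 74.2 and 41.9 CPM in 3D-2D. The groups did not overlap, and the change was -4.07 ± 0.31 (edgeR adjusted p = 4.11e-10). Krt7 changed by -4.16 ± 0.37, Krt19 by -4.02 ± 0.34, Krt18 by -3.44 ± 0.27, and Cldn4, a tight junction protein, by -3.73 ± 0.34. Krt17 had 2 counts over all 2D-3D libraries and 2021 over all 3D-2D libraries. In cells kept on 1 substrate Krt8 stood at 104 CPM in 3D-3D against 3.36 CPM in 2D-2D. Of 9 mesothelial markers tested, which include Krt19, 5 were in this class, and 4 were called higher and 3 lower. Msln had 70 counts over the 2D-3D libraries and 484 over the 3D-2D libraries, beside 2108 in 3D-3D and 51 in 2D-2D. Calb2 ran alike (177, 531, 2050 and 72), while Upk3b (287, 172, 61 and 299) and Lrrn4 (199, 125, 39 and 202) ran the other way.

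Keratin and basal epithelial markers took 0.00169% to 0.00246% of counts in 2D-3D and 0.0124% to 0.0292% in 3D-2D, against 0.0427% to 0.120% in 3D-3D and 0.00362% to 0.00500% in 2D-2D. Airway markers took 0.000792% to 0.00102% in 2D-3D and 0.00120% to 0.00196% in 3D-2D, and Scgb3a2, Muc5b and Bpifa1 had no counts in either. Of 7 tested, 1 was called higher and 4 lower. Cdh1 held most of their counts, with 521 over the 2D-3D libraries and 967 over the 3D-2D libraries. Epcam had 6 and 160, Foxj1 60 and 60, and Cyp2f2 went the other way with 115 and 9. Itga3, a laminin receptor of epithelium, followed the keratins with 2.66 CPM in 2D-3D against 27.0 CPM in 3D-2D (-3.34 ± 0.23), and so did Sprr1a, a protein of stressed epithelium, with 1.27 CPM in 2D-3D against 39.6 CPM in 3D-2D (-4.95 ± 0.29). The part of epithelial or mesothelial cells in the values of genes of this class was not tested.

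Some secreted factors stood in the same class. Il11, described above, averaged 29.1 CPM in 3D-3D against 11.99 CPM in 2D-2D, so 3D-2D was highest, followed by 3D-3D and then by 2D-2D, while 2D-3D was lowest. Upp1, which breaks down uridine, had 4.25 CPM in 2D-3D against 31.8 CPM in 3D-2D (-2.91 ± 0.14), and Gprc5a, an orphan receptor of lung epithelium, 5.02 CPM in 2D-3D against 37.4 CPM in 3D-2D (-2.90 ± 0.16). Of the 33 tested cytokine genes 10 were in this class, while 17 were called in the same direction in both comparisons. The shares of all genes tested were 3.9% and 53.9%. Among the 10 were Lif, with 80.4 CPM in 3D-3D against 66.4 CPM in 2D-2D, and Csf2, the growth factor GM-CSF (-2.26 ± 0.42). Cxcl3, a neutrophil chemokine, was another, with 43.7 CPM in 2D-3D against 163 CPM in 3D-2D (-1.90 ± 0.15). Hbegf, an EGF receptor ligand, changed by -2.16 ± 0.17, and Fst, an activin inhibitor, by -1.75 ± 0.10.

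The 198 higher genes of the class had median levels of 41.5 CPM in 2D-3D against 27.4 CPM in 3D-2D, beside 28.9 CPM in 3D-3D against 42.0 CPM in 2D-2D. Npy, neuropeptide Y, had 35.8, 31.2, 28.5 and 38.6 CPM in 2D-3D, against 3.69, 4.25, 6.22 and 5.43 CPM in 3D-2D. No 3D-2D library reached a 2D-3D library, and the change was 2.78 ± 0.15 (edgeR adjusted p = 2.04e-12), with 9.13 CPM in 3D-3D against 17.4 CPM in 2D-2D. Fcrls, a scavenger receptor-like protein known from macrophages and microglia of the mouse, averaged 202 ± 22.7 CPM in 2D-3D against 42.7 ± 3.04 CPM in 3D-2D (SD, n = 4 each), a change of 2.24 ± 0.10. It stood at 36.6 CPM in 3D-3D against 43.5 CPM in 2D-2D, which is near the 3D-2D level, so 2D-3D stood apart from the other 3 cultures. Pappa, a protease that frees insulin-like growth factors, changed by 2.19 ± 0.19, Cpz, a carboxypeptidase that binds Wnt proteins, by 2.09 ± 0.19, and Adgrd1, an adhesion receptor, by 1.43 ± 0.18.

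**Figure D4:**
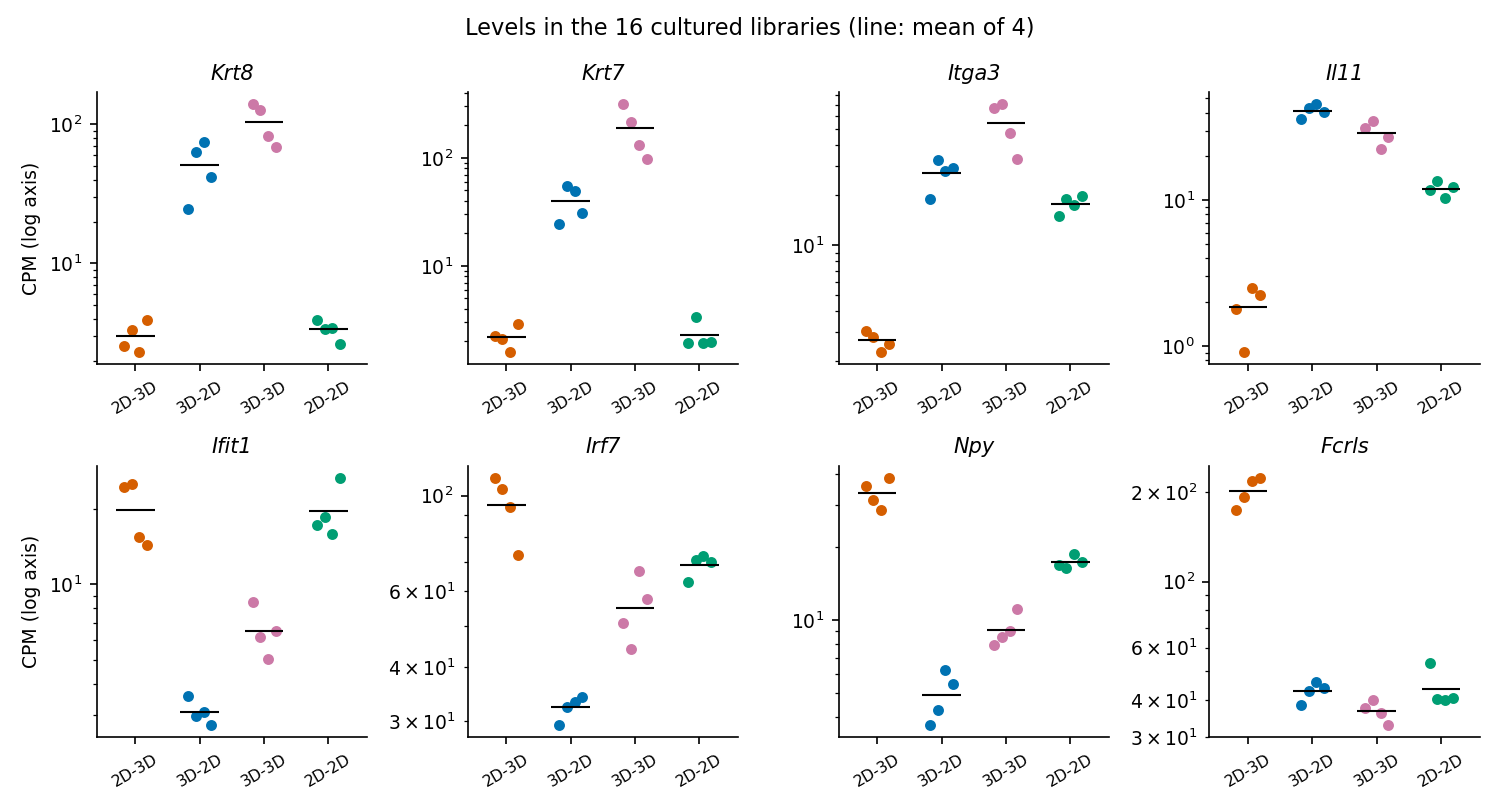
Level of 8 genes called in opposite directions in the 2 comparisons, in each of the 16 cultured libraries (CPM, log axis, line at the mean of 4). Krt8, Krt7, Itga3 and Il11 are lowest on average in 2D-3D and are higher in both cultures that began in gels, and Ifit1, Irf7 and Npy are higher on average in both that began on plates. Fcrls is high in the 2D-3D libraries alone.

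Some genes differed widely between sustained cultures yet stood close after opposite orders. Of 3944 genes called by at least 2-fold between 3D-3D and 2D-2D, 647 (16.4%) had a 95% interval of the 2D-3D over 3D-2D change that lay within 2-fold, 367 of them higher and 280 lower in 3D-3D. Another 2150 were called by at least 2-fold in the same direction and 220 in the opposite one. Col13a1, a transmembrane collagen of alveolar fibroblasts, had 5.62, 4.94, 5.88 and 6.72 CPM in 2D-3D, against 3.74, 5.35, 5.21 and 5.80 CPM in 3D-2D. The libraries overlapped, the change was 0.20 ± 0.16, and sustained cultures stood at 55.3 CPM in 3D-3D against 0.536 CPM in 2D-2D. Cd74, the invariant chain of class II molecules, averaged 14.6 CPM in 2D-3D against 16.3 CPM in 3D-2D, beside 119 CPM in 3D-3D against 3.62 CPM in 2D-2D. Parm1, a mucin-like membrane protein, averaged 39.4 CPM in 2D-3D against 40.7 CPM in 3D-2D, beside 255 CPM in 3D-3D against 22.9 CPM in 2D-2D.

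The genes lower in 3D-3D behaved alike. Vegfd, a lymphatic growth factor, had 58.6, 71.7, 24.2 and 24.2 CPM in 2D-3D, against 48.8, 49.5, 41.1 and 47.2 CPM in 3D-2D. The 2D-3D libraries at 58.6 and 71.7 CPM lay above every 3D-2D library and those at 24.2 CPM below every one. The groups of Vegfd were thus close on average only. Both lay between the sustained levels, 6.28 CPM in 3D-3D against 107 CPM in 2D-2D. Cd248, endosialin of stromal cells, averaged 86.0 CPM in 2D-3D against 79.5 CPM in 3D-2D, beside 33.4 CPM in 3D-3D against 278 CPM in 2D-2D. Thy1, a surface marker of lung fibroblasts, was called lower by a small amount (-0.32 ± 0.10), with 103 CPM in 2D-3D against 129 CPM in 3D-2D and 46.1 CPM in 3D-3D against 521 CPM in 2D-2D. Its call was lost with libraries scaled by total count alone.

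The marker lists of other cell types moved as follows. Macrophage markers were called higher in 17 of 20 cases and lower in 1. Lyz2, lysozyme M, the most abundant, averaged 11916 ± 1446 CPM in 2D-3D against 6740.2 ± 448 CPM in 3D-2D (SD, n = 4 each), a change of 0.82 ± 0.12. C1qb, a chain of complement C1q, changed by 0.76 ± 0.08. Cx3cr1, the fractalkine receptor (3.09 ± 0.17), and Ms4a7 (2.59 ± 0.14) rose most, and Itgam, an integrin of myeloid cells, was the lower one (-0.73 ± 0.10). Alveolar macrophage markers took 0.0291% to 0.0394% of counts in 2D-3D and 0.0442% to 0.0465% in 3D-2D. Of 9 tested, 4 were called higher and 3 lower. Marco, a scavenger receptor of those cells, held most of their counts and changed by -1.10 ± 0.19, while Itgax, the integrin CD11c (0.55 ± 0.15), Chil3, a chitinase-like protein (1.22 ± 0.18), Siglecf, a sialic acid receptor (0.81 ± 0.19), and Ear1, a ribonuclease (2.86 ± 0.38), were higher.

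Smooth muscle markers, most of which are in the contractile list too, took 0.0795% to 0.118% of counts in 2D-3D and 1.14% to 1.20% in 3D-2D. Endothelial shares, given above, overlapped between the orders. Eng held most of these counts, with 7495 over the 2D-3D libraries and 11890 over the 3D-2D libraries, while Pecam1, given above, went the other way. Of 17 endothelial markers tested, 7 were called higher and 2 lower, beside 36% and 33.2% of all genes. Neutrophil markers took 0.0209% to 0.0246% in 2D-3D and 0.0297% to 0.0366% in 3D-2D. Mmp8, a collagenase, made up most of them (178 CPM in 2D-3D against 314 CPM in 3D-2D). Csf3r, the next in counts, went the other way, with 2769 over the 2D-3D libraries and 1074 over the 3D-2D libraries, while Ly6g had no counts in either. Of 6 neutrophil markers tested, 1 was called higher and 3 lower. Alveolar type 2 markers took 0.0598% to 0.0697% in 2D-3D and 0.0338% to 0.0366% in 3D-2D, but Lyz1, whose sequence is close to that of Lyz2, made up most of them, with 505 CPM in 2D-3D against 242 CPM in 3D-2D. Sftpc, surfactant protein C, averaged 4.97 CPM in 2D-3D against 0.394 CPM in 3D-2D. Red blood cell markers had at most 1 count over a group of either order.

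**Figure D5:**
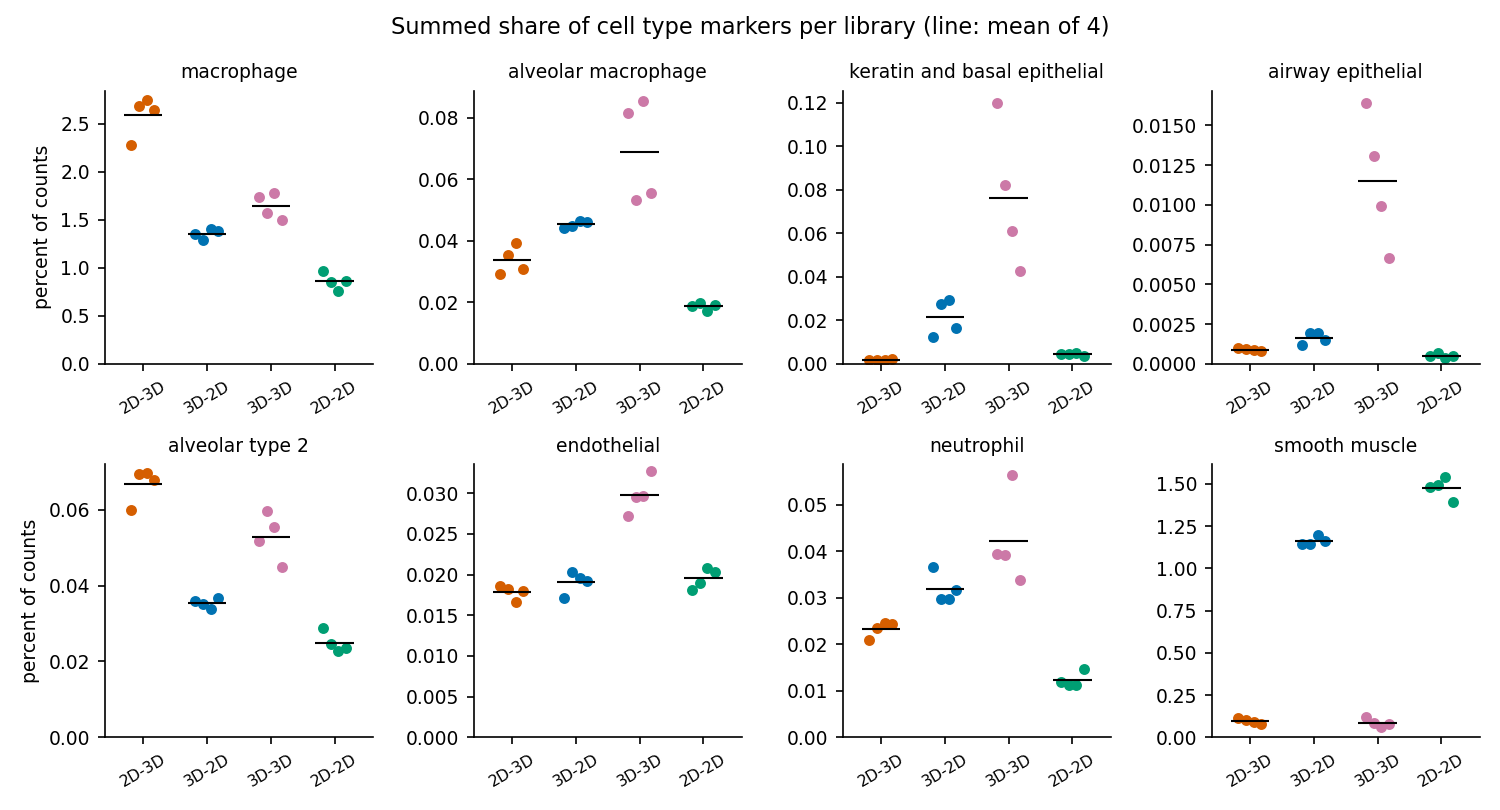
Share of all counts taken by 8 lists of cell type markers in each of the 16 cultured libraries, in percent, with a line at the mean of 4. Macrophage shares are highest in 2D-3D, keratin shares in 3D-3D with 3D-2D next, and smooth muscle shares are at least 1.14% in the 3D-2D and 2D-2D libraries and at most 0.120% in the others. Vertical scales differ between panels.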

How the data were processed

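RNA of 20 libraries was sequenced. The submitters' processing notes name HISAT, Bowtie2 and the mouse build GRCm38.p6, with no versions, and no source used here names the counting program or its use of strand. What the authors deposited are expected counts per gene, not scaled to depth, and 5.98% of values are not whole (tolerance 1e-06). The table lists 67228 genes, 18012 with values. The other 49216, blank, and the 5 columns of group averages were not used. Values were rounded to whole counts. Groups follow the labels, and no replicates were identical.

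Tests used R 4.3.3 and edgeR 4.0.16 on the 16 cultured libraries: filterByExpr, TMM scaling, a quasi-likelihood F test per contrast and Benjamini-Hochberg adjustment over 13704 genes, called at an adjusted p below 0.05 (biological coefficient of variation 0.122). The SE is the unshrunk change over the root of F, and is approximate. Alternatives were RLE size factors, library size alone, DESeq2 1.42.0, limma-voom (limma 3.58.1), other filters, other library sets, a replicate block, a 2-fold test and each library left out. On simulated counts (13528 genes), 20%, 60%, 80% and 100% of genes changed by 1.25, 1.5, 2 and 4 times were called, 50 genes each, with 6 false calls. No other genes were changed in the simulation, while 69.1% were called in the data, so its rates need not hold there.

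Gene symbols are those of the table, so Ctgf, Cyr61 and Mkl1 stand for Ccn2, Ccn1 and Mrtfa. Coordinates and promoters are from RefSeq in GRCm38.p6, and 17888 genes with values matched it. The comparison and the gene lists (35 by function and 21 by cell type, 871 genes, 809 tested) were chosen with earlier results of these data known. Genes were named by rule: the 15 higher and 15 lower with the largest change, up to 4 members of each functional list in each direction with exceptions of 5 or fewer, promoters of at most 6 genes, the 3 members with the highest levels in each cell type list, 25 genes listed by hand, 12 in each direction among genes moving in opposite ways, and 8 in each direction among genes within 2-fold. Actb, C1s1, C3, Cald1, Ccl2, Cd79a, Chil3, Cx3cr1, Cxcl3, Diaph1, Ear1, Fst, Il33, Itgam, Lif, Mmp12, Ms4a7, Mylk, Pecam1, Pxn, Scgb1a1, Sftpc, Siglecf and, in the closing section, the genes of other observations apart from Mmp10 were chosen after their values had been seen. Counts of close families (granzymes, Ifit, H2, Serpina3, Saa, Lyz1 and Lyz2) share sequence and are uncertain. Some genes given by the rule are not reported here.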

Additional observations from a re-analysis of the deposited data

Results flagged for a closer look

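In 26 of 452 sets of 4 libraries, a gene or marker list named here had 1 library far from the other 3, with a gap to its neighbour, as a part of the whole range, beyond Dixon's 95% critical value. Chance gives such a gap in about 1 in 20 sets. Replicate 1 of 3D-2D accounted for 10 of them, and among the 3D-2D libraries it also differed most from the others in the chi-square comparison. Its level was the highest at Ogn (35.5 CPM against 12.3 to 15.3 CPM in the other 3D-2D libraries, gap 0.870), Cald1 (0.898), Myh11 (0.850), Mylk (0.852), Ptgs2 (0.830) and Slc40a1 (0.883). It was the lowest at Zyx (1491 CPM against 1804 to 1815 CPM, gap 0.965), H2-K1 (0.924), Prelp (0.834) and Upp1 (0.845). At none of these 10 genes did that library reach the 2D-3D libraries.

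In 2D-3D, replicate 1 was highest at Dbp (34.5 CPM against 29.8 to 30.5 CPM in the other 2D-3D libraries, gap 0.844) and Ltf, which had counts in that library alone (gap 1), and lowest at Pltp (0.860). Replicate 2 was highest at Spon1 (0.863) and lowest at Cygb (0.857) and Twist2 (0.929). Replicate 3 was highest at Mmp3 (404 CPM against 279 to 287 CPM, gap 0.934) and Sparcl1 (0.986) and lowest at Dio2 (0.867) and Il7r (0.937). Replicate 4 was highest at Col5a3 (0.845) and Hoxb5 (0.968) and lowest at Rbms3 (0.896). In 3D-2D, replicate 2 was highest at Lcn2 (0.875), and replicate 4 at Col15a1 (0.936) and Spon1 (0.873).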

How the results depend on the processing

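The 9476 calls changed little with the test or the libraries fitted: DESeq2 gave 9566, limma-voom 9447, no filter 9581, the 8 libraries of each contrast alone 9336 and all 20 libraries 9855. With the replicate number as a block there were 9418 calls, 9324 of them shared, and same-numbered libraries of both orders did not deviate together (r from -0.0483 to 0.0443), so the numbers were not used as pairs. Leaving out each library in turn gave 9006 to 9753 calls, 4555 to 5072 higher and 4355 to 4915 lower, 3293 to 3571 by at least 2-fold, 7078 to 7494 in the same direction as 3D-3D against 2D-2D, 491 to 585 in the opposite one, and 592 to 678 genes within 2-fold. The median change ran from -0.0196 to 0.0424 there. It was 0.0136 with RLE size factors and with DESeq2, 0.225 with library size alone, 0.0281 with limma-voom, 0 with no filter, -0.00239 with at least 10 CPM in 4 libraries and 0.0167 with all 20 libraries. The filter at 10 CPM left 1981 calls of at least 2-fold and 318 in opposite directions, since fewer genes were tested. Testing against a change of 2-fold called 1886 genes. Under library size alone the share of higher calls moved to 64.4%, against 52.1%, and Serpinf1 took a small positive change of 0.16 with an adjusted p of 0.047, while Atp6v0d1, Cd248, Col13a1, Col1a1 and Tcf21 were called higher. The cause was not tested. Genes of a few counts per library have wide errors at this depth.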

Other observations

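Some genes took a level in 1 of the orders that no other culture reached. These were chosen after their values had been seen and are given as a description. All 4 2D-3D libraries lay above the 12 other cultured libraries at 806 genes and below them at 526. All 4 3D-2D libraries lay above the others at 331 genes and below them at 435. Cd36, a scavenger receptor for lipids, averaged 208 CPM in 2D-3D against 66.1 CPM in 3D-2D, beside 65.8 CPM in 3D-3D against 63.3 CPM in 2D-2D. Pltp, which transfers phospholipids, averaged 228 CPM in 2D-3D against 36.1 CPM in 3D-2D, beside 93.3 CPM in 3D-3D against 37.7 CPM in 2D-2D. Il7r, the receptor for interleukin 7, averaged 17.96 CPM in 2D-3D against 2.10 CPM in 3D-2D, beside 5.96 CPM in 3D-3D against 4.04 CPM in 2D-2D, so 2D-3D stood above the other cultures at each of the 3. Macrophage markers were also highest in 2D-3D, and their part in these values was not tested.

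Mgp, matrix Gla protein, an inhibitor of calcification and among the most abundant transcripts here, averaged 8119 CPM in 2D-3D against 587 CPM in 3D-2D, beside 4049 CPM in 3D-3D against 1708 CPM in 2D-2D. It was highest in 2D-3D and lowest in 3D-2D. Cygb, a globin of fibroblasts, ran the same way with 218 CPM in 2D-3D against 22.0 CPM in 3D-2D, beside 121 CPM in 3D-3D against 61.1 CPM in 2D-2D. Mmp10, stromelysin 2, was highest in 3D-2D with 64.9 CPM in 2D-3D against 248 CPM in 3D-2D, beside 65.5 CPM in 3D-3D against 120.1 CPM in 2D-2D. Stab1, a scavenger receptor of macrophages and endothelium, was highest there too, with 348 CPM in 2D-3D against 672 CPM in 3D-2D, beside 200.5 CPM in 3D-3D against 284 CPM in 2D-2D. Dio2, which activates thyroid hormone, averaged 4.90 CPM in 2D-3D against 23.7 CPM in 3D-2D, beside 5.30 CPM in 3D-3D against 9.05 CPM in 2D-2D. Epha2, an ephrin receptor, was lowest in 2D-3D, with 4.31 CPM in 2D-3D against 32.9 CPM in 3D-2D, beside 17.8 CPM in 3D-3D against 34.5 CPM in 2D-2D.

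Another 60 genes of at least 10 CPM were called by at least 2-fold between the orders and not called between 3D-3D and 2D-2D, 37 higher and 23 lower in 2D-3D. Ptgs2, the inducible cyclooxygenase, had 41.5, 37.4, 43.5 and 30.6 CPM in 2D-3D, against 303, 245, 254 and 255 CPM in 3D-2D. The groups did not overlap, and sustained cultures stood between them at 186 CPM in 3D-3D against 157 CPM in 2D-2D. Tnf, tumour necrosis factor, averaged 7.28 CPM in 2D-3D against 18.2 CPM in 3D-2D, beside 9.80 CPM in 3D-3D against 8.28 CPM in 2D-2D. Vdr, the vitamin D receptor, averaged 11.9 CPM in 2D-3D against 40.7 CPM in 3D-2D, beside 36.8 CPM in 3D-3D against 36.7 CPM in 2D-2D. Slc40a1, the iron exporter ferroportin, averaged 34.7 CPM in 2D-3D against 14.97 CPM in 3D-2D, beside 14.9 CPM in 3D-3D against 13.1 CPM in 2D-2D, and Tfrc, the transferrin receptor for iron uptake, averaged 16.4 CPM in 2D-3D against 34.4 CPM in 3D-2D, beside 18.2 CPM in 3D-3D against 23.2 CPM in 2D-2D. Dbp, a clock output factor, averaged 31.3 CPM in 2D-3D against 9.08 CPM in 3D-2D, beside 16.7 CPM in 3D-3D against 14.9 CPM in 2D-2D. A call missed between 3D-3D and 2D-2D does not show that these genes were at the same level there.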
